A study of Caenorhabditis elegans with 6 samples.

Results

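The transcriptome described here is that of day 6 adult Caenorhabditis elegans of strain AM140 fed control bacteria. It rests on 3 of the 6 RNA-seq libraries of the series, EV1, EV2 and EV3, chosen by their label as worms grown on an empty vector (EV). The strain carries the transgene rmIs132 [unc-54p::Q35::YFP], in which the promoter of the muscle myosin gene unc-54 drives 35 glutamines fused to yellow fluorescent protein in body wall muscle. All 3 libraries carry this transgene, so no library here shows the wild type. The food was the Escherichia coli strain HT115 with an empty RNAi vector. Both generations fed on it at 20 °C. Bleaching of day 1 adults gave generation 2, which was washed daily to remove its progeny and collected on day 6 of adulthood. Each library was made from a pool of whole worms, and the labels do not say whether the 3 pools grew as separate cultures. The spread between libraries given below may therefore be technical. The other 3 libraries, from worms on RNAi against gtr-1, are not used here, so no comparison between groups and no test is made.

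An adult hermaphrodite is in large part gonad. The germ line makes sperm first and then switches for life to oocytes, which are loaded with maternal RNA, take up yolk proteins made by the intestine, and are fertilised and given an eggshell before being laid. Somatic tissues outside the gonad are mostly non-dividing: body wall muscle, the pharynx, the intestine, the epidermis with its collagen cuticle, and a small nervous system. RNA from pools of whole worms mixes all of these and any embryos inside the mother. In such samples, fewer cells of a type and less RNA per cell cannot be told apart.

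The libraries held 36952416, 39092036 and 33254426 counts in EV1, EV2 and EV3. Of 22407 genes with counts, 14056 (62.7%) reached 10 counts in every library, the criterion for detection used below. Among them were 13565 of 19985 protein-coding genes (67.9%). Levels are given as counts scaled to library size (CPM) for a gene across libraries, and as CPM per kilobase of exon (RPKM) wherever genes or gene lists are set side by side. At these depths, 10 counts correspond to 0.271, 0.258 and 0.297 CPM. A count of 0 allows up to 0.0814, 0.0774 and 0.0892 CPM, which covers counting error only. The 10 most abundant genes held 8.20%, 8.73% and 7.40% of the counts. A mean of 1 RPKM or more was reached by 11625 protein-coding genes, 100 RPKM by 1243 and 1000 RPKM by 109.

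The highest RPKM belonged to eef-1A.1, which encodes translation elongation factor 1-alpha (WBGene00001168, chromosome III, 6970026 to 6971712, - strand, build WBcel235). Its level was 7922 ± 230.0 RPKM (mean ± SD, n = 3, as for all values with ±). Next came sip-1 (WBGene00004798, chromosome III, 10506106 to 10506801, - strand), a small heat shock protein of oocytes and embryos, at 4464 ± 312 RPKM. Both stood clear of the genes below them, since their lowest library exceeded the highest library of the next gene. The yolk protein genes vit-2 (WBGene00006926, chromosome X, 5101042 to 5106169, + strand), vit-6 (WBGene00006930, chromosome IV, 8261157 to 8266459, + strand) and vit-5 (WBGene00006929, chromosome X, 3403471 to 3408603, + strand) had 3535 ± 562 RPKM, 3378 ± 568 RPKM and 2557 ± 356 RPKM. From the third to the twentieth gene, the ranges of neighbours in the order overlapped in all 17 pairs. The order of neighbours there is not resolved. Some genes further apart did not overlap. The lowest libraries of vit-2 (2932 RPKM) and vit-6 (2785 RPKM) exceeded the highest library of rpl-4 (2467 RPKM). Of the 20 highest protein-coding genes, 11 encode ribosomal proteins, led by rpl-41.2 (2695 ± 363 RPKM), rpl-4 (2393 ± 102 RPKM) and rpl-2 (2256 ± 111 RPKM). Mitochondrial genes were among them too: the cytochrome c oxidase subunits ctc-3 (2184 ± 33.4 RPKM) and ctc-1 (2178 ± 113 RPKM) of the mitochondrial genome and the mitochondrial ADP/ATP carrier ant-1.1 (2177 ± 156 RPKM). The secreted fatty acid and retinol-binding protein gene far-2 (1993 ± 286 RPKM) completed the 20.

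Set beside each other, 43 gene lists (23 of tissues, 20 of functions) spanned several orders of magnitude. Ribosomal proteins had the highest median, 1462 ± 51.7 RPKM over 81 genes, beside 2.16 ± 0.0796 RPKM over all protein-coding genes. Among tissue lists, yolk protein genes, eggshell genes and those of uterus and vulva came first. The uterus and vulva median (375 ± 53.7 RPKM over 9 genes) falls on ule-2 and was 529 RPKM over detected members only. Oocyte and germ line genes followed, and body wall muscle (30.2 ± 2.68 RPKM) and intestine (20.8 ± 1.83 RPKM) came lower. Neurons (8.21 ± 0.419 RPKM), glia (1.49 ± 0.101 RPKM) and the sensory cilium (0.645 ± 0.0629 RPKM) came lower still. The lowest tissue list was sperm, at 0.312 ± 0.0276 RPKM. Of the 42 pairs of neighbours in this order, 22 did not overlap in any library and 20 did. Ribosomal proteins and vitellogenins overlapped, as did RNA interference genes, antimicrobial peptides and body wall muscle in a row, and so did sheath, seam and excretory genes. The lists differ in how narrowly their members are expressed, so their medians order genes, not the mass of tissues.

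**Figure D1:**
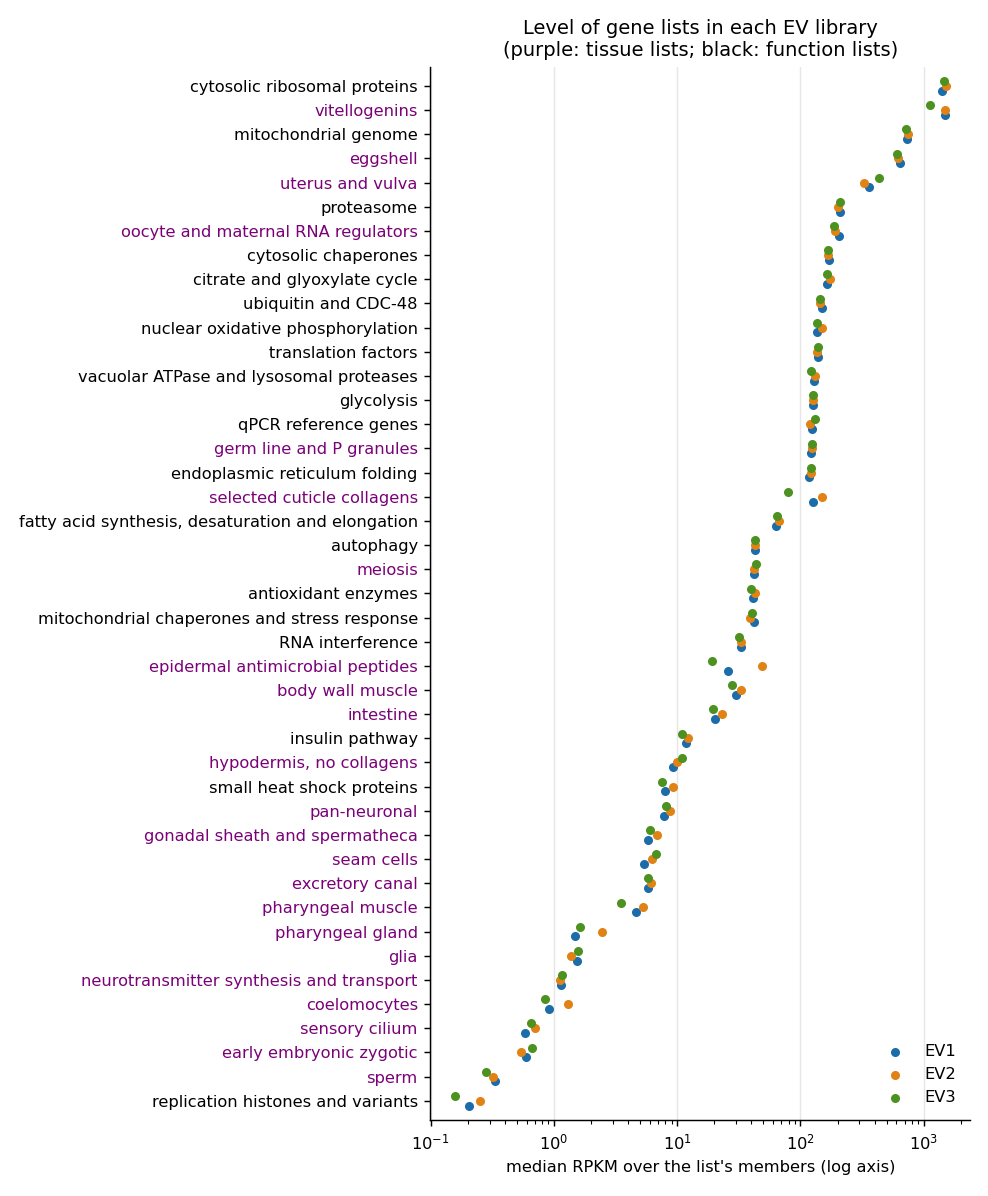
Median RPKM (log axis) over the members of each of the 43 gene lists in EV1, EV2 and EV3, with tissue lists in purple and function lists in black. Ribosomal proteins and vitellogenins sit highest and histones and sperm genes lowest, and the 3 points of the antimicrobial peptides lie furthest apart (18.99 RPKM in EV3 to 49.2 in EV2).

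Germ line genes were abundant and even between libraries. All 21 germ line and P granule genes were detected, with a median of 123 ± 1.79 RPKM and a median coefficient of variation over libraries (CV, the SD as a percentage of the mean) of 3.07%. The RNA helicase gene cgh-1 and its partner car-1, which store and protect maternal mRNA, led with 1449 ± 46.7 RPKM and 1252 ± 41.8 RPKM. The translational repressor gene gld-1 stood at 1137, 1113 and 1084 CPM in EV1, EV2 and EV3, a CV of 2.38%. The Notch receptor gene glp-1, which maintains germ line stem cells, had 66.5 ± 4.57 RPKM. Its targets lst-1 and sygl-1 had 96.6 ± 0.902 RPKM and 150.3 ± 10.2 RPKM. The stem cell repressors fbf-1 and fbf-2 were the lowest of the list (23.7 ± 0.652 RPKM and 15.3 ± 0.657 RPKM).

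Meiotic genes were detected to the last of 27, with a median of 42.5 ± 1.11 RPKM. They ran from the kinase gene plk-2 (97.9 ± 2.16 RPKM) and the chromosome axis gene him-3 (95.8 ± 5.63 RPKM) down to the kinase gene chk-2 (6.12 ± 0.350 RPKM), with spo-11, whose product cuts DNA to start recombination, at 28.8 ± 1.92 RPKM. In 25 of the 27, EV2 was the lowest library, beside 42.04% of all genes at 10 CPM or more. The size was small, with list deviations from the gene means of 0.03, -0.06 and 0.03 on the log2 scale in EV1, EV2 and EV3.

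Maternal RNA regulators of the oocyte had a median of 194 ± 9.18 RPKM, with all 19 detected. The zinc finger gene pos-1 was at 717, 662 and 637 CPM in EV1, EV2 and EV3, and the yolk receptor gene rme-2 at 1214, 1122 and 1198 CPM in EV1, EV2 and EV3. Their CVs were 6.14% and 4.15%. The redundant oocyte maturation genes oma-1 and oma-2 had 192 ± 8.80 RPKM and 367 ± 14.8 RPKM. The lowest of the list was zif-1, an adaptor for protein breakdown in the embryo (79.8 ± 3.34 RPKM). The 11 eggshell genes had a median of 623 RPKM, from 607 to 639.6 over the libraries, and took 1.46 ± 0.0100% of all counts. The chondroitin proteoglycan genes cpg-2 and cpg-1 led with 1893 ± 38.6 RPKM and 1855 ± 23.6 RPKM, and chs-1, the chitin synthase gene of the eggshell, was lowest with 99.9 ± 5.75 RPKM. In CPM, cpg-1 read 3498, 3552 and 3463 CPM in EV1, EV2 and EV3, a CV of 1.27%.

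In the somatic gonad, the sheath innexin gene inx-8 (86.8 ± 1.66 RPKM) and the filamin gene fln-1 of the spermatheca (84.2 ± 0.607 RPKM) stood far above the sheath transcription factor genes lim-7 (5.11 ± 0.829 RPKM) and ceh-18 (3.29 ± 0.330 RPKM). The remaining members were inx-9 (33.2 RPKM), ipp-5 (7.33 RPKM), fkh-6 (1.77 RPKM) and plc-1 (1.30 RPKM). The 5 uterine ule genes had between 375 (ule-2) and 1051 RPKM (ule-1). Of these, ule-4 read 633, 656 and 809 CPM in EV1, EV2 and EV3. EV3 was the highest library for ule-1, ule-2 and ule-4 but not for ule-3 and ule-5. The vulval developmental gene egl-17 was below detection, with counts of 2, 9 and 13.

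Sperm genes were scarce. Of 13, 9 were detected, and the median was 0.312 ± 0.0276 RPKM. The highest was cpb-1 (36.9 ± 3.42 RPKM), an RNA-binding protein gene needed for sperm formation, followed by the transcription factor gene spe-44 (9.12 ± 0.305 RPKM). The sperm phosphatase gene gsp-3 had counts of 17, 25 and 13 and the fertilisation gene spe-9 13, 15 and 13. The 4 below detection were spe-11 (12, 10 and 9), spe-42 (3, 4 and 10), spe-38 (0, 0 and 3) and snf-10 (1, 0 and 2). Of the 31 major sperm protein (msp) genes, 14 were detected, the highest being msp-59 with 2.66 ± 1.37 RPKM. These genes are near-identical copies, so reads that fit several of them may have been lost or split, and their single levels are uncertain. The same holds for the replication histones: of 76 histone genes 28 were detected, while the variant histone gene htz-1, which has no such copies, had 702 ± 18.7 RPKM. Replication histone mRNA mostly lacks the poly(A) tail by which the libraries were captured, and the part of this was not tested.

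Early zygotic genes, which embryos switch on soon after fertilisation, were detected in 7 of 14 cases. The median was 0.601 ± 0.0592 RPKM. The Notch target gene ref-1 had the highest level, 8.82 ± 0.479 RPKM, then pes-1 (3.40 ± 0.731 RPKM) and pes-10 (2.98 ± 0.212 RPKM). The endoderm genes end-1 and end-3 had counts of 8, 14 and 13 and 22, 14 and 9, and med-1, which acts above them, 0, 0 and 2. Also below detection were med-2 (1, 3 and 1), sdz-23 (5, 0 and 1), hlh-27 (1, 4 and 1) and hlh-26 (2, 2 and 0).

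Yolk protein genes combined high levels with a wide spread. The 6 vitellogenin genes took 4.90 ± 0.748% of all counts. EV3 was the lowest library for all 6, beside 29.04% of all genes at 10 CPM or more. The gene vit-2 read 17915, 19947 and 14466 CPM in EV1, EV2 and EV3, a CV of 15.9%. The gene vit-6 read 17373, 19843 and 14105 CPM in EV1, EV2 and EV3 (16.8%), and vit-5 13270.1, 13627 and 10459 CPM in EV1, EV2 and EV3 (13.9%). These are the most abundant 3 of the 6, and in them EV2 was highest. The lower 3 had EV1 as the highest library and spread further. The gene vit-4 read 1183, 916 and 474 CPM in EV1, EV2 and EV3, a CV of 41.8%, vit-3 939.8, 842 and 445 CPM in EV1, EV2 and EV3 (35.3%) and vit-1 622, 429 and 256 CPM in EV1, EV2 and EV3 (42.02%). Members of this family are close in sequence, among them vit-3, vit-4 and vit-5 on the X chromosome, so reads may be split between them.

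The intestine, which makes the yolk, was represented by 23 further genes, all detected, with a median of 20.8 ± 1.83 RPKM. The protease genes asp-1 (655 ± 134 RPKM) and cpr-1 (499.9 ± 109 RPKM) and the saposin-like gene spp-5 (579.8 ± 44.7 RPKM) led. In CPM, asp-1 read 683, 964 and 693 CPM in EV1, EV2 and EV3, so that EV2 stood above both others. The gut determination factor elt-2 had 5.23 ± 0.504 RPKM, the esterase gene ges-1 29.9 ± 2.60 RPKM and the peptide transporter gene pept-1 6.41 ± 0.284 RPKM. The lowest was the transporter gene pgp-1 (1.15 ± 0.196 RPKM). EV3 was the lowest library in 12 of the 16 members at 10 CPM or more, beside 29.04% of all genes. The median CV was 9.09%. The list of vacuolar ATPase subunits and lysosomal proteases, with 45 of 51 detected, had a median of 127 ± 4.50 RPKM, with EV3 lowest in 32 of 43 members and a deviation there of -0.10. Its highest member was the aspartic protease gene asp-6, at 1207, 1578 and 1211 CPM in EV1, EV2 and EV3.

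Body wall muscle, the tissue in which the polyglutamine transgene is active, was represented by 31 genes, all detected, with a median of 30.2 ± 2.68 RPKM. The gene unc-54 (WBGene00006789, chromosome I, 14855901 to 14863482, - strand) encodes the major body wall myosin, and the transgene uses its promoter. Its level was 581, 697 and 389 CPM in EV1, EV2 and EV3. Its CV of 28.01% was the widest of the list. Whether any reads of the transgene were counted under unc-54 was not tested. EV2 stood highest and EV3 lowest. The partner myosin gene myo-3 read 57.1, 70.9 and 52.6 CPM in EV1, EV2 and EV3 (15.8%). The paramyosin gene unc-15 read 326, 373 and 233 CPM in EV1, EV2 and EV3 (22.95%), and the actin gene act-4, highest of the list at 552 ± 55.6 RPKM, 833, 986 and 830.0 CPM in EV1, EV2 and EV3 (10.1%). The order of the libraries was the same for most members: EV2 was highest in 26 and EV3 lowest in 27 of the 30 at 10 CPM or more. Over all genes those shares were 28.6% and 29.04%. The list deviated by 0.04, 0.22 and -0.25 on the log2 scale in EV1, EV2 and EV3.

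Within muscle the spread ranged from 1.997% to 28.01% CV around the list median of 16.8%. Among myosin genes, the light chain genes mlc-1, mlc-2 and mlc-3 had 24.1%, 22.5% and 18.6%, while myo-3 lay below the list median. Among troponin genes, the troponin I gene unc-27 had 22.8%, the troponin T genes tnt-3 and mup-2 22.6% and 16.8%, and the troponin C gene pat-10 17.4%. The tightest genes encode parts of the integrin attachment, the PINCH gene unc-97, the parvin gene pat-6 (2.73%), the beta integrin gene pat-3 (4.04%) and the kindlin gene unc-112 (4.40%). This did not hold for all attachment genes, since the alpha integrin gene pat-2 had 9.15%, zyx-1 (zyxin) 13.5%, deb-1 (vinculin) 13.9% and unc-95 16.9%. The grouping by role was made after the values were seen. The giant protein genes unc-22 (twitchin) and ttn-1 were low per length, 2.15 ± 0.363 RPKM and 0.585 ± 0.0519 RPKM. The myogenic factor hlh-1, homologue of MyoD, had 2.39 ± 0.195 RPKM.

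Pharyngeal muscle followed the same order of libraries at lower levels, with a median of 4.48 ± 0.904 RPKM. Its myosin genes myo-2 and myo-1 read 29.1, 36.8 and 21.1 CPM in EV1, EV2 and EV3 (27.03%) and 23.8, 26.5 and 15.3 CPM in EV1, EV2 and EV3 (26.9%). EV2 was the highest and EV3 the lowest library in all 5 members at 10 CPM or more, beside 28.6% and 29.04% of all such genes. These 5 also include pha-4 (6.08 ± 1.29 RPKM), the organ identity factor of the pharynx, myo-5 (2.14 ± 0.194 RPKM) and tni-4 (44.8 ± 0.998 RPKM). The others were tnt-4 (5.48 RPKM), tnc-2 (4.38 RPKM) and ceh-22 (0.476 RPKM). The pharyngeal gland genes phat-1 to phat-6 and their regulator hlh-6 were low throughout, from 0.651 RPKM (hlh-6) to 3.42 RPKM (phat-6). The 3 coelomocyte genes cup-4 (3.59 RPKM), let-381 (1.01 RPKM) and unc-122 (0.756 RPKM) were all detected.

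Of the 31 gene families examined, the cuticle collagens had the most members of wide spread. Of 156 col genes 97 were detected, and the family took 0.788%, 0.662% and 0.481% of the counts in EV1, EV2 and EV3. Of the 35 at 10 CPM or more, 19 had a CV over 25%, beside 141 of 7611 genes (1.85%) in all. EV3 was lowest for 22 of the 35, beside 29.04% of all genes at 10 CPM or more, and EV1 highest for 20, beside 36.2%. The gene col-93 (WBGene00000668, chromosome III, 10984552 to 10985609, - strand) read 97.4, 43.03 and 16.3 CPM in EV1, EV2 and EV3, a CV of 79.2%. The gene col-160 read 132, 63.2 and 42.3 CPM in EV1, EV2 and EV3 (59.3%). In both, EV1 stood well above the others. The most abundant, col-122, read 819.9, 821 and 584 CPM in EV1, EV2 and EV3 (18.4%), with EV1 and EV2 close together and EV3 below. The adult collagen gene col-19 read 155, 145 and 88.8 CPM in EV1, EV2 and EV3 (27.5%).

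Among 17 selected collagens the median was 118 ± 35.4 RPKM. Those below detection were col-120 (22, 8 and 11 counts), rol-6 (14, 13 and 6), bli-1 (8, 10 and 9) and bli-2 (3, 5 and 3). Not every collagen was low in EV3: sqt-3 read 179.8, 262 and 281 CPM in EV1, EV2 and EV3 and dpy-7 15.2, 19.8 and 20.7 CPM in EV1, EV2 and EV3, both lowest in EV1.

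The epidermal antimicrobial peptide genes, induced in the epidermis by infection and wounding, differed in another way. EV2 was highest and EV3 lowest in all 7 members at 10 CPM or more, beside 28.6% and 29.04% of all such genes. The gene cnc-2 (WBGene00000556, chromosome V, 1449665 to 1450183, - strand) read 10.8, 25.4 and 6.36 CPM in EV1, EV2 and EV3, a CV of 70.2%, and nlp-29 (WBGene00003767, chromosome V, 3984425 to 3984847, + strand) 14.8, 25.4 and 9.34 CPM in EV1, EV2 and EV3 (49.3%). The gene nlp-27, highest by level at 108 ± 21.2 RPKM, read 35.01, 40.4 and 27.1 CPM in EV1, EV2 and EV3. The list deviated by -0.12, 0.48 and -0.32 in EV1, EV2 and EV3. The genes cnc-1 and cnc-5 were below detection with counts of 5, 10 and 1 and 0, 1 and 0.

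As a list, the other hypodermal genes deviated little, by -0.08, -0.01 and 0.02 on the log2 scale in EV1, EV2 and EV3. The median of 14 hypodermal genes outside the col family was 10.04 ± 0.811 RPKM, led by lin-26 (69.2 ± 2.22 RPKM), which specifies epidermal fate, and the intermediate filament gene ifb-1 (51.1 ± 1.97 RPKM). EV3 was lowest in 1 of the 11 members at 10 CPM or more, beside 29.04% of all such genes. The nuclear receptor gene nhr-25, with the widest CV of the list, read 15.3, 18.6 and 26.9 CPM in EV1, EV2 and EV3 (29.4%), highest in EV3. The cuticle procollagen gene dpy-5 went the other way at a low level, with counts of 85, 35 and 19. Among the 9 seam cell genes, with a median of 6.08 ± 0.689 RPKM, the engrailed gene ceh-16 read 7.21, 9.24 and 14.7 CPM in EV1, EV2 and EV3 (37.3%). It exceeded 10 CPM in EV3 alone, so its place among genes at 10 CPM or more rests on that library. The gene egl-18, highest by level, read 55.6, 59.1 and 58.4 CPM in EV1, EV2 and EV3 (3.13%). The hedgehog-like gene grd-3 was lowest in EV3 (16.98, 17.6 and 8.89 CPM in EV1, EV2 and EV3).

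Of the 141 genes with a CV over 25%, 22 (15.6%) were highest in EV3, a smaller share than the 35.2% of all genes at 10 CPM or more. Besides ceh-16 and nhr-25 they hold noah-2 (122.004, 158 and 205 CPM in EV1, EV2 and EV3) and fbn-1 (94.3, 93.7 and 148 CPM in EV1, EV2 and EV3), which encode apical extracellular matrix proteins, and hch-1, a protease gene that acts in hatching (91.4, 103.5 and 173 CPM in EV1, EV2 and EV3). They also hold the matrix gene let-653 (25.8, 27.5 and 43.9 CPM in EV1, EV2 and EV3), the hedgehog-related gene wrt-10 (34.7, 35.2 and 55.4 CPM in EV1, EV2 and EV3) and the patched-related gene ptr-4 (21.2, 27.6 and 38.7 CPM in EV1, EV2 and EV3). EV1 and EV2 lay near each other and EV3 stood apart for hch-1, fbn-1, let-653 and wrt-10, while EV2 lay between the others for noah-2 and ptr-4. Except for hch-1, nhr-25 and ceh-16, these genes were chosen after their values were seen.

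**Figure D2:**
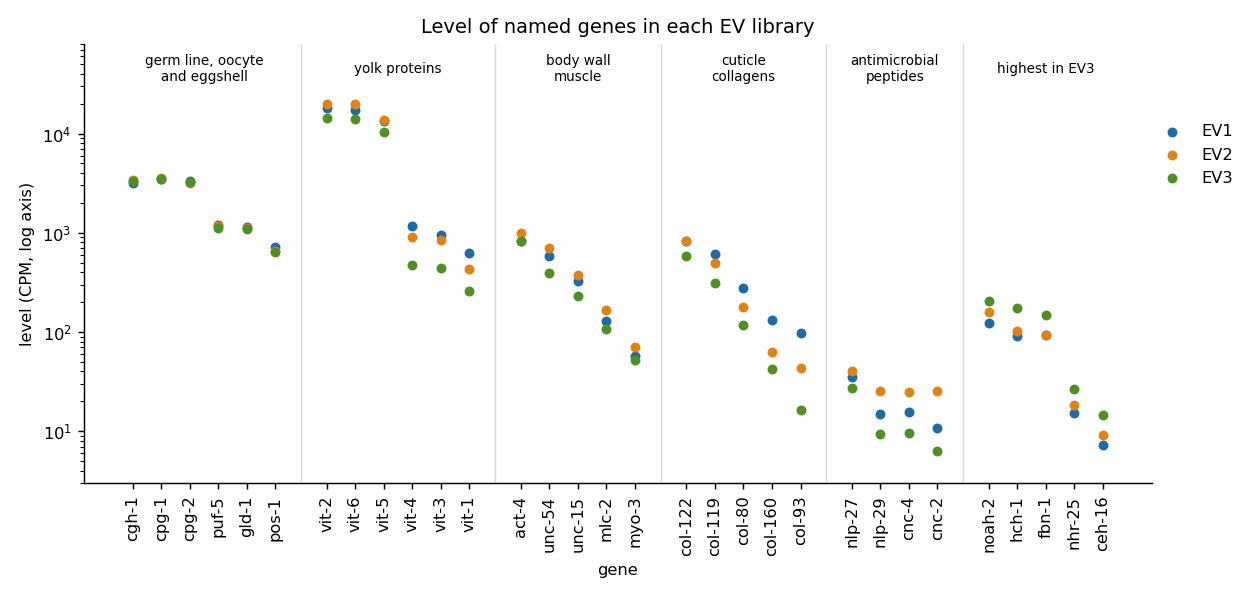
Level in CPM (log axis) of named genes in EV1, EV2 and EV3, with 1 point per library. Genes are grouped by tissue, except for the last group, from noah-2 to ceh-16, which was picked because EV3 was highest. The 3 points nearly coincide for the germ line, oocyte and eggshell genes. EV3 is lowest for the yolk proteins, muscle genes, collagens and antimicrobial peptides shown.

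Pan-neuronal genes were all detected, mostly at low levels. The median of the 24 was 8.21 ± 0.419 RPKM, led by the synaptobrevin gene snb-1 (249.6 ± 4.23 RPKM) and maco-1 (65.6 ± 2.95 RPKM). The neuronal gene rgef-1 was lowest (0.652 ± 0.0574 RPKM). The neuropeptide processing enzyme gene egl-3 had the widest spread of the list. It read 82.2, 90.1 and 58.8 CPM in EV1, EV2 and EV3 (21.1%), and its partner egl-21 44.7, 46.7 and 32.6 CPM in EV1, EV2 and EV3 (18.5%), EV3 being lowest for both. Of the FMRFamide-like peptide (flp) genes, 30 of 31 were detected with a median of 6.34 ± 1.28 RPKM, and flp-6 had the highest level (41.97 ± 7.51 RPKM). Of the insulin-like peptide (ins) genes, 19 of 38 were detected, the highest being ins-34 (15.6 ± 1.76 RPKM).

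Genes of transmitter synthesis and transport had a median of 1.15 ± 0.0163 RPKM. The exceptions were tbh-1 (186 ± 6.59 RPKM) and tdc-1 (114 ± 6.59 RPKM), enzymes of octopamine and tyramine synthesis that are also made in the gonadal sheath. The GTP cyclohydrolase gene cat-4 had 37.3 ± 6.61 RPKM. The glutamate transporter gene eat-4 had 1.02 ± 0.106 RPKM, and tph-1, which makes serotonin in a few neurons, was lowest with counts of 12, 17 and 13. Of 28 cilium genes 27 were detected, with a median of 0.645 ± 0.0629 RPKM and a maximum of 6.31 ± 0.594 RPKM in dyf-3. Below detection was klp-11 with 1 count in each library, and as 97.1% of its exon sequence is shared with another gene on the same strand, its count is uncertain. Glial genes ran from pros-1 (4.48 ± 0.830 RPKM) through ptr-10 (1.82 RPKM), vap-1 (1.57 RPKM), daf-6 (1.44 RPKM), kcc-3 (1.41 RPKM) and fig-1 (0.467 RPKM) to hlh-17, below detection with counts of 2, 1 and 2. The aquaporin gene aqp-8 (5.95 ± 0.270 RPKM) and the chloride channel gene exc-4 (29.9 ± 0.843 RPKM) represent the excretory canal, whose 8 genes were all detected.

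Chemoreceptor genes, which are expressed in single sensory neurons, were rarely detected. Of 220 srh genes 5 were detected, of 192 str genes 10, of 109 srw genes 1, of 101 srx genes 3, of 61 srt genes 3 and of 61 sri genes 4. The highest of them was str-176 with 14.9 ± 1.06 RPKM. At the other end, all 23 patched-related (ptr) genes, 30 of 31 flp genes and 33 of 36 bath genes were detected, beside 67.9% of all protein-coding genes. C-type lectins had 96 of 239 detected, with a median of 0.148 ± 0.00957 RPKM, yet the family reached 1121 ± 62.7 RPKM in clec-87. Nuclear hormone receptors had 185 of 269 detected (68.8%), near the share of all protein-coding genes. They were led by nhr-49 (74.2 ± 3.51 RPKM), a regulator of fat metabolism.

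**Figure D3:**
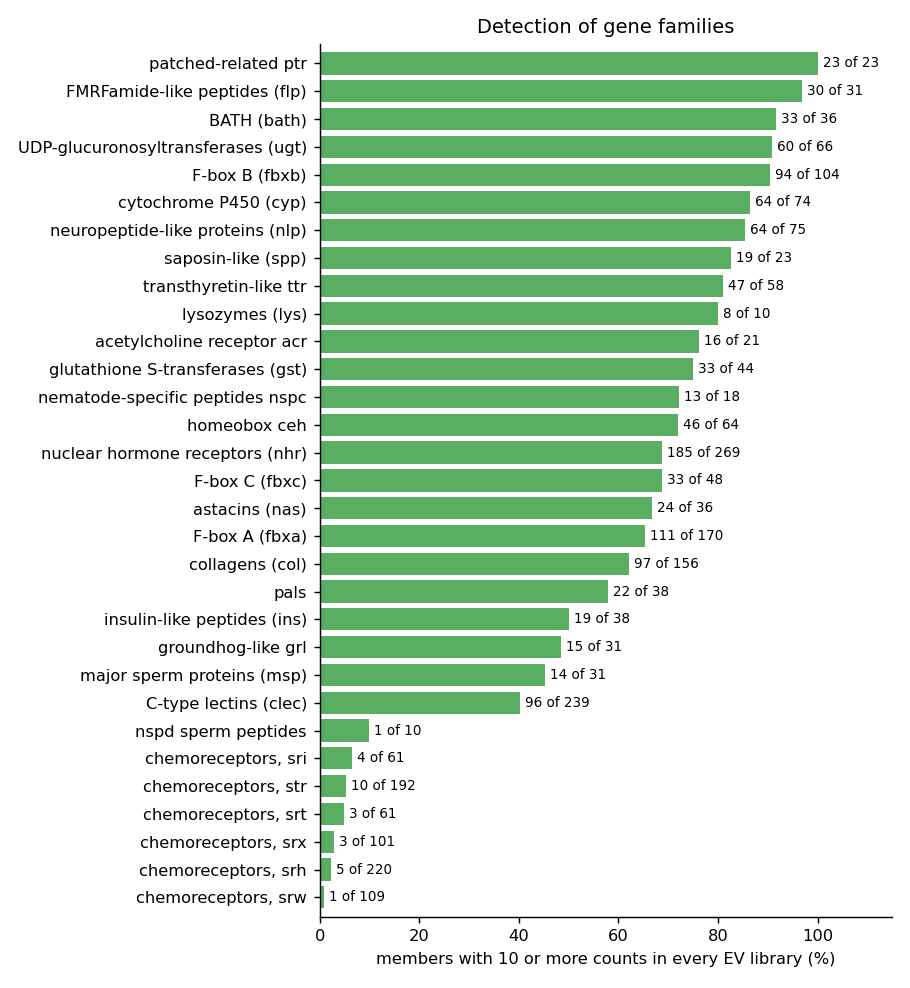
Share of each family's members (%, bar length) that had 10 or more counts in every EV library, with the number of members beside each bar. The 6 chemoreceptor families and the nspd peptides sit at 10% or below, and the other families at 40.2% or more.

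Ribosomal protein genes took 7.01 ± 0.270% of counts, with 80 of 81 detected. The exception, rpl-42, had 1 count in each library, and whether the assignment of reads plays a part was not tested. The median CV of the ribosomal protein genes was 4.34%, and the libraries kept an order. EV1 was lowest in 71 of the 79 at 10 CPM or more and EV2 highest in 53. Over all genes those shares were 28.9% and 28.6%. The deviations were -0.06, 0.05 and 0.01 on the log2 scale. The gene rpl-41.2, widest of the list, read 689.5, 872 and 703 CPM in EV1, EV2 and EV3 (13.5%). Among 37 translation factors the median was 138.5 ± 1.57 RPKM, with eef-2 at 1833 ± 54.02 RPKM and eef-1G at 1311 ± 10.9 RPKM next to eef-1A.1, and ife-4 lowest (9.997 ± 0.618 RPKM).

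The cytosolic chaperones had a median of 168 ± 1.98 RPKM and a median CV of 2.68%. The constitutive HSP70 gene hsp-1 read 3193, 3460.4 and 3264 CPM in EV1, EV2 and EV3 and hsp-90 2895, 2728 and 2912 CPM in EV1, EV2 and EV3. The 8 chaperonin genes cct-1 to cct-8 ran from 160.1 (cct-7) to 294 RPKM (cct-5). The heat shock factor gene hsf-1 had 52.6 ± 2.50 RPKM. The inducible HSP70 genes F44E5.4 and F44E5.5 were lowest, with counts of 18, 15 and 10 and 24, 25 and 22; they are close copies. The 14 small heat shock protein genes had a median of 8.26 ± 0.887 RPKM, with 10 detected and a median CV of 9.90% over the 3 at 10 CPM or more, and sip-1 was by far the highest. It read 2668, 3066 and 2838 CPM in EV1, EV2 and EV3, followed by hsp-43 (56.3 ± 5.57 RPKM) and hsp-25 (44.3 ± 6.53 RPKM). The stress-inducible hsp-16.41 had 14.3 ± 2.75 RPKM, while hsp-16.1, hsp-16.11, hsp-16.48 and hsp-16.49 stayed below detection, with counts of 1, 2 and 2, then 1, 2 and 3, 3, 4 and 3 and 1, 1 and 4. These 4 are duplicated copies, so their counts are uncertain.

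Proteasome subunits were among the most even lists, with a median of 207 ± 4.44 RPKM over 33 genes and a median CV of 2.51%. Subunit genes ran from rpn-10 (116 ± 2.44 RPKM) to pbs-1 (324 ± 7.39 RPKM), except the paralog rpn-6.2, at 6.85 ± 0.464 RPKM beside rpn-6.1 at 141 ± 1.77 RPKM. The polyubiquitin gene ubq-1 and the ubiquitin-ribosomal fusion gene ubq-2 had 627 ± 16.23 RPKM and 1469.5 ± 145 RPKM. The segregase gene cdc-48.1 had 389 ± 9.68 RPKM. In the endoplasmic reticulum the calreticulin gene crt-1 (877 ± 62.0 RPKM) and the disulfide isomerase genes pdi-3 (584 ± 33.9 RPKM) and pdi-2 (473 ± 31.6 RPKM) led, and atf-6 was lowest (11.8 ± 0.821 RPKM). EV3 was the highest library in 13 of these 18 genes, beside 35.2% of all genes, with deviations of -0.03, -0.02 and 0.04. The mitochondrial chaperone genes hsp-6 (581 ± 21.6 RPKM) and hsp-60 (359 ± 12.15 RPKM) stood above the stress factor atfs-1 (110.4 ± 1.81 RPKM). In autophagy, lgg-1 led (621 ± 29.5 RPKM) and atg-10 was lowest (4.69 ± 0.555 RPKM).

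In energy metabolism, the 12 protein genes of the mitochondrial genome had a median of 733 ± 15.9 RPKM and took 1.16 ± 0.0268% of counts. The highest were ctc-3, ctc-1 and atp-6 (1950.5 ± 23.7 RPKM), followed by ctc-2 (1191 ± 42.9 RPKM) and ctb-1 (1184 ± 82.5 RPKM). Nuclear genes of oxidative phosphorylation had a median of 141 ± 8.27 RPKM. The ATP synthase genes atp-2 (1136 ± 36.4 RPKM) and atp-1 (1013 ± 45.1 RPKM) led, and nuo-3 was below detection with counts of 6, 2 and 4. Of its exon sequence, 72.6% is shared with another gene on the same strand, so its count is uncertain.

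Glycolysis had a median of 125 ± 0.227 RPKM, with aldo-2 (591 ± 41.7 RPKM), enol-1 (586 ± 6.97 RPKM) and gpd-1 (380.2 ± 14.9 RPKM) highest and pfk-1.2 below detection (2, 5 and 6 counts) beside pfk-1.1 at 28.6 ± 1.01 RPKM. In the citrate and glyoxylate cycles (median 167 ± 4.84 RPKM) the glyoxylate enzyme gene icl-1 had the widest spread, 923, 1073 and 784 CPM in EV1, EV2 and EV3 (15.6%), with EV3 lowest. Of the fatty acid genes, the desaturases fat-2 (639 ± 16.9 RPKM), fat-1 (415 ± 13.6 RPKM) and fat-6 (352 ± 28.7 RPKM) led. The fatty acid synthase gene fasn-1 read 353, 364 and 517 CPM in EV1, EV2 and EV3 (22.2%), highest in EV3. The elongase genes elo-7 and elo-8 were below detection (3, 1 and 0 and 2, 9 and 7 counts).

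Antioxidant genes were led by the peroxiredoxin gene prdx-2 (604 ± 30.4 RPKM), the metallothionein gene mtl-1 (223 ± 55.0 RPKM) and the superoxide dismutase gene sod-1 (208 ± 8.33 RPKM), and sod-5 was lowest (0.557 ± 0.0249 RPKM). The metallothionein mtl-1 read 60.8, 101 and 88.1 CPM in EV1, EV2 and EV3 (24.6%), with EV1 lowest. In the insulin pathway daf-18 was highest (256 RPKM). The transcription factor gene daf-16 had 65.4 ± 1.85 RPKM and the receptor gene daf-2 26.5 ± 0.776 RPKM. The ligand gene ins-6 was lowest, with counts of 49, 28 and 14. The list of RNA interference genes was detected in full (21 of 21, median 32.6 ± 0.876 RPKM), with ergo-1 highest (129.7 RPKM). It included the channel gene sid-1 (31.1 ± 1.72 RPKM), the gut uptake gene sid-2 (9.63 ± 1.28 RPKM), the nuclease gene dcr-1 (26.6 ± 1.58 RPKM) and the Argonaute gene rde-1 (29.2 ± 1.32 RPKM). The gene gtr-1, targeted in the libraries not used here, had counts of 16, 25 and 20, which is 0.498 ± 0.0985 RPKM.

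The spread between libraries was small for most genes. Over the 7611 genes at 10 CPM or more, the median CV was 4.46%, where counting error alone would give 2.13%. The CV was under 10% for 84.8% of genes and over 25% for 141 (1.85%). Between 10 and 30 CPM the median was 6.98%, between 100 and 300 CPM 3.49%, and above 1000 CPM 3.43%, where counting error alone would give 0.443%. The common biological CV estimated by edgeR was 7.85%. The genes with the lowest CV at 100 CPM or more were cdc-14, at 201, 202 and 201 CPM in EV1, EV2 and EV3, then snu-13, M01B12.4, F53C11.4, vbh-1, ntl-11, dlat-1, tat-5, pyk-1 and mdt-15. All 10 lay below their counting error, as did 15.4% of all genes at 10 CPM or more, so their order among themselves is not resolved. Genes commonly used as references in quantitative PCR ranged from cdc-42 with 1.44% and ama-1 with 1.57% to csq-1 with 20.2%, the calsequestrin gene of muscle, which read 60.6, 68.2 and 45.2 CPM in EV1, EV2 and EV3.

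The widest spread at 10 CPM or more was that of H39E23.3 (WBGene00044201, chromosome V, 14107811 to 14110051, + strand), with a CV of 94.96%. It read 7.97, 28.3 and 4.43 CPM in EV1, EV2 and EV3, with EV2 far above the rest and alone in exceeding 10 CPM. The place of H39E23.3 among genes at 10 CPM or more therefore rests on EV2. After it came col-93, cnc-2 and col-160, described above, and acdh-1, an acyl-CoA dehydrogenase gene used as a sensor of diet (20.01, 16.9 and 6.04 CPM in EV1, EV2 and EV3, 51.2%). The next were ZK6.11 (50.7%), ZK596.1 (50.03%), nlp-29 (49.3%), col-179 (49.3%), F46F2.3 (48.4%), sysm-1 (46.95%), cnc-4 (45.7%), F48C1.9 (43.99%), C23H5.8 (43.3%) and col-80 (42.4%). All but H39E23.3, cnc-2, nlp-29, cnc-4 and F48C1.9, which were highest in EV2, were highest in EV1, and all 15 were lowest in EV3. Among genes at 100 CPM or more, the widest were col-80, vit-1, vit-4, col-20 (41.4%), ctsa-1.2 (41.3%), dod-19 (38.1%), col-42 (37.1%), col-124 (36.3%), clec-41 (35.9%) and hch-1 (35.9%). Of these, hch-1 was the 1 gene that was highest in EV3.

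**Figure D4:**
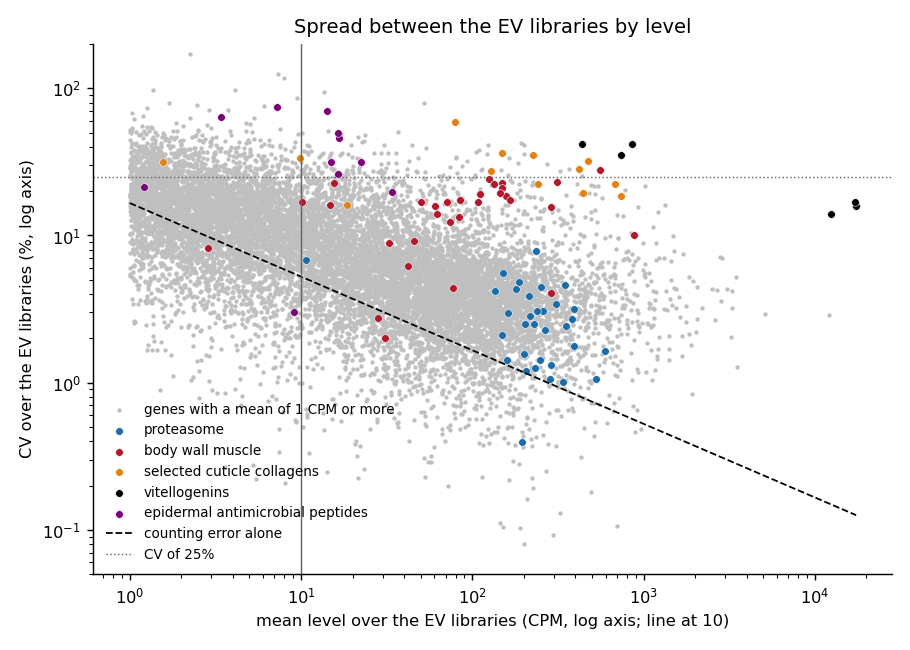
CV over the 3 EV libraries (%, log axis) against mean level (CPM, log axis) for genes at 1 CPM or more, with 5 gene lists in colour, counting error as a dashed line and a CV of 25% as a dotted line. Proteasome genes lie mostly below 5%, body wall muscle genes mostly above 10%, and the collagens, vitellogenins and antimicrobial peptides above 10% except for 1 peptide gene.

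In most genes of wide spread, EV3 was low. Of the 141 genes with a CV over 25%, EV3 was lowest in 108 (76.6%), beside 29.04% of all genes at 10 CPM or more. EV1 was highest in 59 (41.8%), beside 36.2% of all genes, and EV2 in 60 (42.6%), beside 28.6%. For EV3 the count was 22 (15.6%), beside 35.2%. Without EV3, 90 genes exceeded 25%, 44 of them among the 141. EV1 and EV2 differed more than 1.5-fold in 48 genes, EV1 and EV3 in 157, and EV2 and EV3 in 132. The typical difference, as the root mean square of log2 differences, was 0.15, 0.19 and 0.19 for these pairs. Total counts were lowest in EV3 too, and whether this bears on the pattern was not tested. Other lists stayed close to their means: germ line (0.01, -0.02 and 0.003), proteasome (0.02, -0.02 and -0.001) and cytosolic chaperone genes (0.002, -0.01 and 0.01) had small deviations in EV1, EV2 and EV3. The scaling removes shifts shared by most genes, so all list deviations are relative to the bulk of genes. The list deviations in EV1, EV2 and EV3 were 0.30, 0.11 and -0.48 for the selected collagens and 0.26, 0.20 and -0.47 for the vitellogenins, beside 0.01, -0.01 and 0.005 over all genes at 10 CPM or more.

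**Figure D5:**
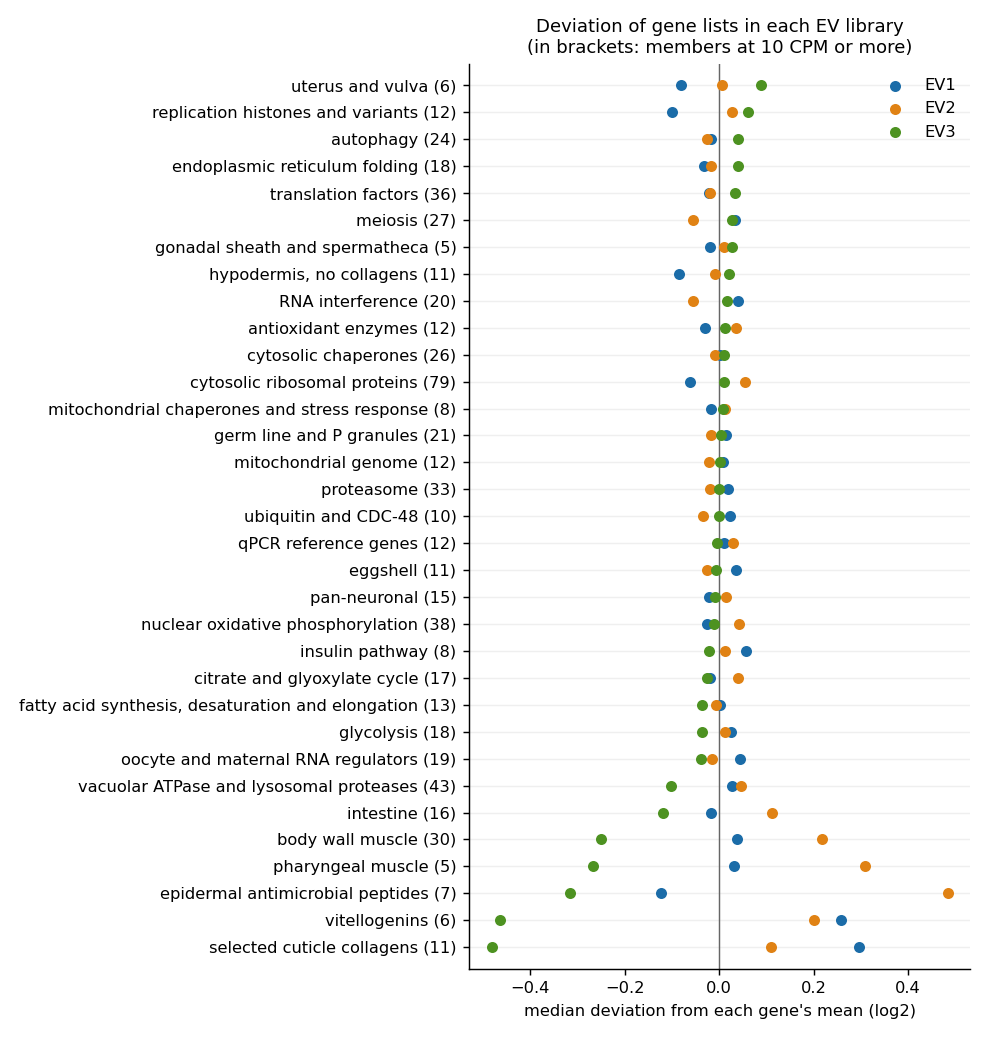
Median deviation from each gene's mean (log2 CPM, horizontal axis) of the gene lists with 5 or more members at 10 CPM or more, with 1 point per library and the number of members in brackets. EV3 lies left of 0 for collagens, vitellogenins, antimicrobial peptides and both muscle lists, EV2 lies furthest right for antimicrobial peptides (0.48), and most other lists lie near 0 in all 3 libraries.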

How the data were processed

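Whole-worm mRNA was captured on beads and made into stranded libraries, per the labels' protocols. The counts, whole numbers per gene, are the authors' deposited values. The submitters' processing notes list STAR, HTSeq and WBcel235. Tool versions and strand setting: not given in the sources used here, so reads of overlapping genes on either strand and of close paralogs are uncertain. The deposited table has 46926 genes, 22407 of them with counts. Another 9 per-sample columns, which hold other libraries and the authors' normalized counts, were not used. All identifiers with counts were found in Ensembl release 115, the source of exon lengths and coordinates.

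Counts were scaled by TMM factors from the 3 libraries (0.998, 0.991 and 1.01, edgeR 4.0.16, R 4.3.3). RPKM divides CPM by merged exon length. CV was described for genes with a mean of 10 CPM or more, and list deviations use log2(CPM + 0.5). Scaling and dispersion were tested on simulated data. Tables and figures used Python 3.11.15, pandas 2.3.3, numpy 2.4.6 and matplotlib 3.10.9. Replicate pairs differed by more than sampling noise (chi-square per degree of freedom 17.9 to 32.1). Each library was treated as 1 sample, but this excess does not show that the pools were separate cultures. The gene lists and the members were chosen with earlier results of these data known. Genes to name were drawn by a rule. Over all genes it took the 20 highest RPKM, the 15 highest CVs at 10 CPM, and the 10 highest and 10 lowest at 100 CPM. In each list it took the 3 highest, the lowest, the widest and those not detected. All members of short lists and family leaders were also taken. Not every gene that the rule gives is named above, and some list and family leaders are left out. Other named members were chosen after their values were seen. Alternatives were library size or DESeq2 1.42.0 size factors, other minimums, other lengths and leaving out each library.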

Additional observations from a re-analysis of the deposited data

How the results depend on the processing

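The share of counts in the 10 most abundant genes (mean 8.11%) was 4.87% when counts were scaled by length. The median CV of 4.46% was 6.49% for genes at 1 CPM or more and 3.68% at 50 CPM or more, and it lay between 4.39% and 4.81% under library size, DESeq2 size factors and a scaling without the 10 top genes. Omitting each library in turn, which leaves 2 libraries to form a CV, gave a median CV of 3.29% to 3.97% and 90 to 228 genes with a CV over 25% in place of 141. The alternatives for that count were added after the data were seen. The lowest, 90, is the one without EV3 and the highest, 228, the one without EV2. For 41 lists, the deviation in the library where it was largest was recomputed. All 41 moved by less than their SD over libraries under DESeq2 size factors and a pseudocount of 5 CPM, and 40 did under library size and under a minimum of 1 CPM; the exceptions were cytosolic chaperones and pan-neuronal genes. List medians moved by more than their SD for 8 lists when the longest transcript replaced merged exons, and for 10 when genes below detection were left out, with the largest move in histones (15.4 for 0.205 RPKM), whose place as the lowest list rests on members below detection, and others in small heat shock proteins (15.01 for 8.26 RPKM) and early zygotic genes (2.63 for 0.601 RPKM). The cause of these shifts was not tested beyond the construction of each alternative. Depth limits genes under 1 CPM, where counting error takes up most of the CV: between 0.3 and 1 CPM the median CV was 24.1%, and counting alone would give 23.2%. No paired analysis was possible because 1 group is described. With 3 libraries, an SD is itself imprecise.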

Other observations

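Counts were spread unevenly over the chromosomes. Detected protein-coding genes of chromosomes I and III had median levels of 26.2 ± 0.342 and 25.8 ± 0.289 RPKM. Those of V and X had 5.72 ± 0.222 and 4.94 ± 0.270 RPKM. Chromosome V had the lowest share of detected genes, 2648 of 4994 (53.0%), and III the highest, 2149 of 2640 (81.4%). Genes of the X chromosome were the least even, with a median CV of 6.47%, where the autosomes had 4.03% to 4.71%. These CVs were not matched for level. Over all genes the median CV was 6.98% between 10 and 30 CPM and 3.49% between 100 and 300 CPM. The part of level in the X value was not tested. EV2 was highest for 374 of the 906 X-linked genes at 10 CPM or more, beside 28.6% of all such genes.

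Paralogs of the same enzyme or factor differed in level and in spread. Elongation factor gene eef-1A.1 had 7922 ± 230.0 RPKM and its X-linked copy eef-1A.2 394 ± 27.01 RPKM. The ribosomal protein genes rpl-11.1 and rpl-11.2, the second also on X, had 1737 ± 55.7 RPKM and 213 ± 8.46 RPKM. Among glyceraldehyde phosphate dehydrogenase genes, gpd-1 and gpd-4 on chromosome II had CVs of 3.91% and 2.50%, and gpd-2 and gpd-3 on X 12.9% and 13.2%, with EV3 lowest for both of the latter. The aldolase gene aldo-2 had a CV of 7.06% and aldo-1 13.9%. The pairs are close in sequence, and they were picked after their values were seen. Of 2128 pseudogenes with counts 438 were detected, the highest being WBGene00014309 on chromosome II at 311 ± 23.6 RPKM.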
